A study of Mus musculus with 12 samples.

Results

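The genes described here carry glucose from the cell surface to acetyl-CoA: 36 genes for glucose entry, glycolysis, lactate exchange, glycogen storage and pyruvate oxidation, of 16514 genes listed in any of the 4 deposited tables. They were chosen by name, with earlier results of these data known. Of the 36, 35 were listed in all 4 tables. Aldoc, an aldolase isoform typical of brain, was listed only in the table that compares the diets in TAC hearts, so 35 genes were tested in the other comparisons. RNA came from hearts of male C57Bl/6J mice aged 12 weeks, which ate either a control diet with the branched-chain amino acids leucine, isoleucine and valine (BCAA) or a diet free of BCAA. All 4 groups, the controls included, received 1% propionate in the diet. After 4 days on the diet the mice had either sham surgery or transverse aortic constriction (TAC), in which the aortic arch is narrowed so that the left ventricle pumps against a higher pressure, and the heart was taken 1 week later on the same diet. The control diet gave 2 groups, control sham and control TAC, and the diet free of BCAA gave BCAA-free TAC and BCAA-free sham. Each group had 3 libraries, and per-library values below are in the order of replicates 1, 2 and 3. Whether each library is a separate mouse is not stated in the labels, and the p-values then cover only library-to-library spread, which may be technical.

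As background, the adult heart draws most of its energy from fatty acids and takes the rest from glucose, lactate and other fuels. Glucose enters through the transporters GLUT1 (Slc2a1) and GLUT4 (Slc2a4), is trapped as glucose 6-phosphate by hexokinases, and then either joins glycogen or passes through glycolysis to pyruvate, with phosphofructokinase as the main point of control. Pyruvate is exchanged with lactate by lactate dehydrogenase or enters the mitochondrion through the MPC1 and MPC2 carrier, where the pyruvate dehydrogenase complex turns it into acetyl-CoA. Many of these steps have a muscle form and a form found in other tissues, and a shift towards glucose use and towards the fetal forms is a known feature of the pressure-loaded heart.

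Libraries held 29929161 to 46101244 reads assigned to genes. Levels are RPKM, reads per kilobase of exon scaled to library size. The length used is the union of all annotated exons of a gene, such as 1570 bases for Ldhb and 13401 for Pfkp. It can exceed the transcript in use, so levels and shares compare different genes only roughly. All 8 cardiomyocyte markers were present in all 12 libraries, with a summed level of 73622 to 93336 CPM, reads scaled to library size alone. The TAC libraries numbered 1, on both diets, stood apart: 8 fibroblast markers summed to 2584 and 2368 CPM there, against 1191 to 1449 in the other 4 TAC libraries and 722 to 998 in the 6 sham libraries. Calls among the 36 genes that rest on TAC hearts are therefore given with and without these libraries. Control TAC replicate 3 stood apart in liver markers: the 2 of 6 present in all libraries summed to 30.4 CPM there, against 0.627 to 1.79 in the other 11. In whole-tissue RNA, fewer cells of a type and less RNA per cell cannot be told apart. Gapdh, Ldha, Eno1, Pgk1, Pgam1, Tpi1 and Aldoa have processed pseudogenes, and reads shared with these copies make their values uncertain.

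Levels differed widely between members. Averaged over the 12 libraries, the highest by RPKM were Aldoa at 1061, Ldhb at 923, Eno3 at 851, Gapdh at 782 and Pgam2 at 639. At the other end stood Pfkfb4 at 0.9 RPKM, Pfkfb3 at 1.89, Pfkfb1 at 4.48, Slc2a1 at 5.60 and Pfkp at 6.06. Aldoc was lower still, at 0.0408 to 0.142 RPKM in the 6 TAC libraries. Most members were steady: the highest library exceeded the lowest by 1.17 times for Pdk1, the least variable, and by 2.40 times for Pfkfb3, the most variable.

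**Figure D1:**
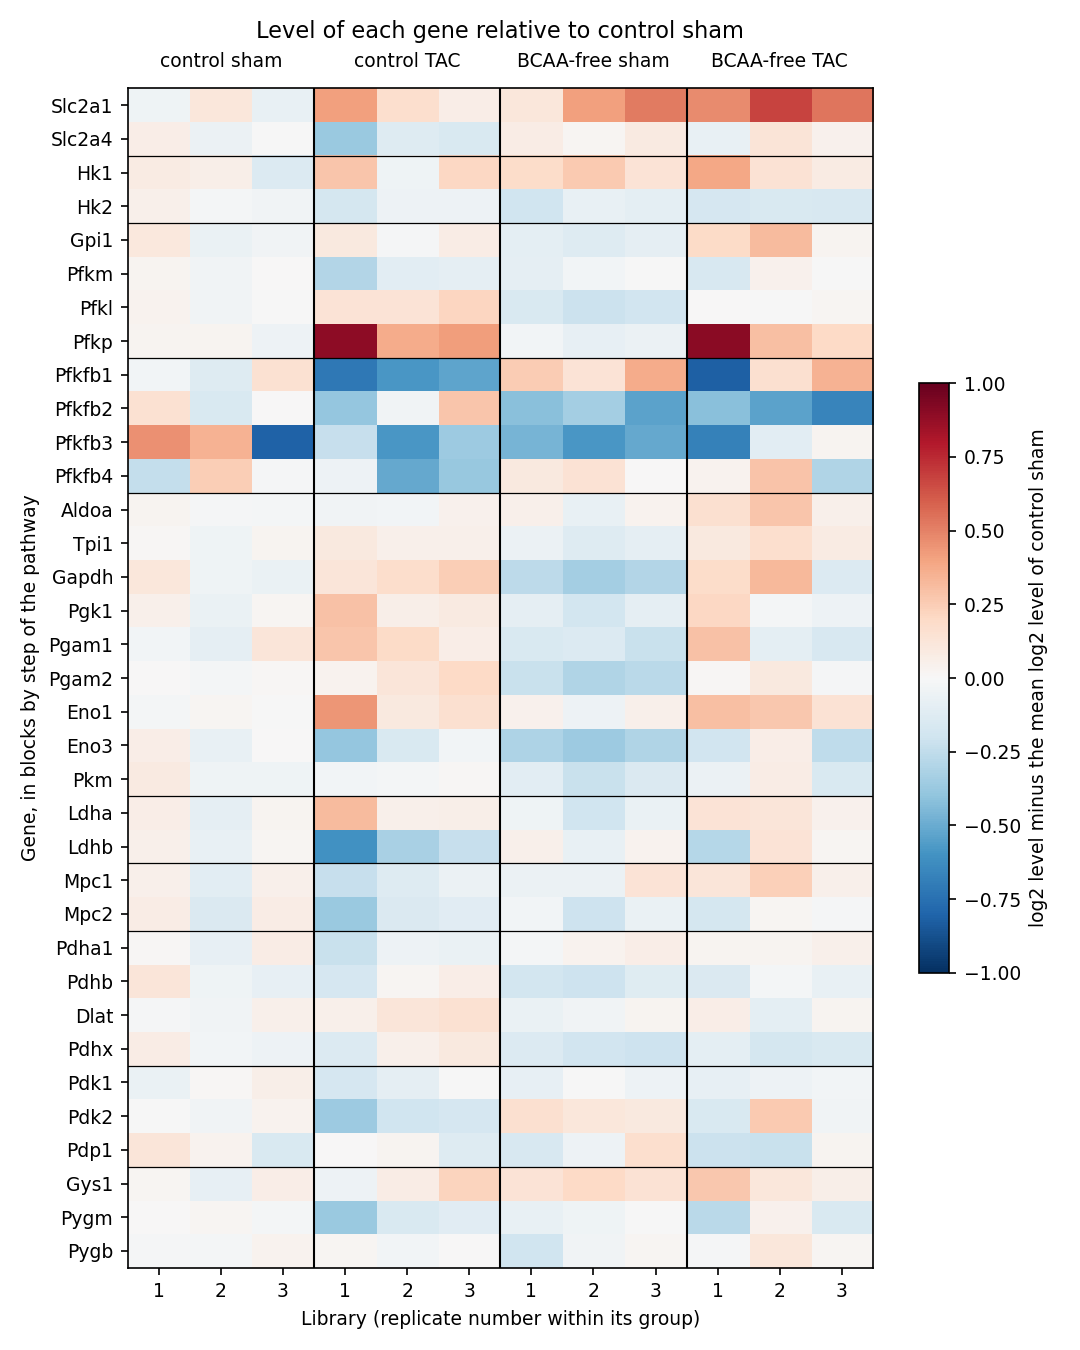
Colour shows the log2 level of each of 35 genes (rows, in blocks by pathway step) in each of 12 libraries (columns, by group) minus the mean log2 level of control sham. Pfkp is darkest in the TAC libraries numbered 1, where it reached 9.25 and 9.30 RPKM, and most other rows stay pale.

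After TAC, 7 enzymes of the glycolytic chain rose and Pfkfb1, an enzyme that regulates it, fell. Averaged over both diets, 7 of 35 tested members rose and 1 fell after TAC (limma on log2 of normalised reads + 4, changes given with their standard error, adjusted p under 0.05 over all genes), or 22.9% in all, while 17% of all 15524 genes tested passed. By direction, 9.67% of all genes tested rose and 7.29% fell. The genes that rose were Pfkp (1.45-fold), Gapdh (1.23-fold), Eno1, Pgam2, Pfkl, Gpi1 and Tpi1, all enzymes between glucose 6-phosphate and pyruvate. The gene that fell was Pfkfb1, one of 4 enzymes that set the level of the phosphofructokinase activator fructose 2,6-bisphosphate. The median change of the 35 members was 0.028 on the log2 scale, against -0.0049 for all genes tested.

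Within each diet the counts were smaller. On the control diet 2 of 35 members passed, Pfkp upwards and Pfkfb1 downwards, against 5.34% of all genes tested (3.4% upwards and 1.94% downwards). On the BCAA-free diet 1 of 35 passed, Pgam2 upwards, against 4.32% (2.94% upwards and 1.37% downwards). At an unadjusted p under 0.05, 3 members were higher and 6 lower on the control diet, against 11.9% and 10.8% of all genes tested, and 8 were higher and 0 lower on the BCAA-free diet, against 11.5% and 9.84%. Without BCAA-free TAC replicate 1, 3 members passed on the BCAA-free diet, and the share of all genes in that fit is not given here. The libraries of TAC and sham did not overlap in either diet for 7 members, all higher in TAC: Pfkl, Pfkp, Tpi1, Gapdh, Pgk1, Pgam2 and Eno1. Among all genes tested in both tables, 5.45% were separated upwards in this way and 4.09% downwards, where 0 members stood. Of 9 skeletal muscle markers, 5 were present in all libraries, and these summed to 56.0 to 95.04 CPM in TAC against 27.0 to 32.1 in sham. Of these 5, Mybpc2 rose on each diet and Tnnt3 on the BCAA-free diet, and the other 3 passed in neither. By sign alone, 3 of these markers were higher and 2 lower after TAC on the control diet, and 4 and 1 on the BCAA-free diet. Their part in the members' changes was not tested.

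**Figure D2:**
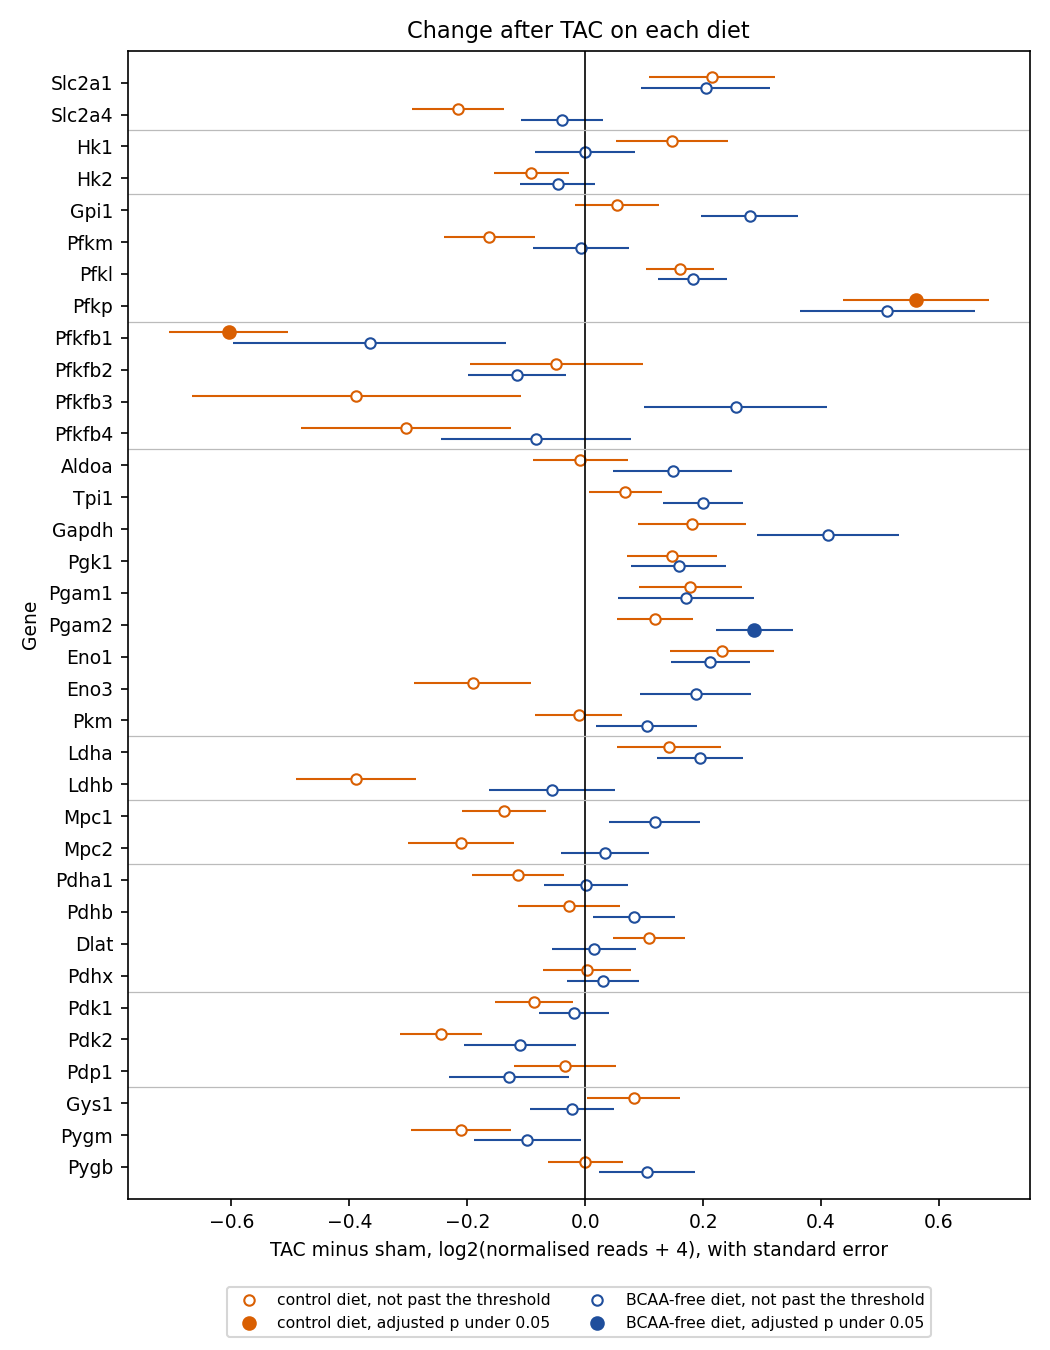
Points give the log2 change after TAC, on log2(normalised reads + 4), with its standard error, for 35 genes on the control diet (orange) and the BCAA-free diet (blue), 3 libraries against 3 each. Filled points passed an adjusted p of 0.05: Pfkp and Pfkfb1 on the control diet and Pgam2 on the BCAA-free diet.

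With the BCAA-free diet 1 member rose and 4 fell, 14.3% of the 35 tested, against 11.8% of all genes tested. Of those that fell, Pgam2 and Pfkl were also among those that rose after TAC. How often other genes did both was not counted. Averaged over surgery, 1 of 35 members rose on the BCAA-free diet and 4 fell, while 11.8% of all 15458 genes tested passed, 5.19% upwards and 6.57% downwards. Slc2a1 rose (0.35 ± 0.08, adjusted p = 0.0133), and Pfkfb2, Pgam2, Pfkl and Pdhx fell. In sham hearts 3 of 35 members passed, all downwards, against 2.81% of all genes tested (1.05% upwards and 1.76% downwards). These were Pfkfb2, Pgam2 and Eno3. In sham hearts edgeR and DESeq2 each called 4 members, where they called 464 and 826 of all 15596 genes tested. In TAC hearts 0 of 36 passed by limma and by edgeR, against 3.38% of all genes tested (1.27% upwards and 2.11% downwards), with 7 at an unadjusted p under 0.05, against 19.9% of all genes, and 2 called by DESeq2, against 7.28%. Without both TAC libraries numbered 1, the count averaged over surgery was 10, of which 5 rose. The share of all genes in that fit is not given here. Calls over all genes also moved with the method, from 1819 by limma to 2383 by DESeq2. That count alone is therefore not a result about the members. Marker levels of other cell types differed with the diet in both directions, and their part was not tested. Macrophage markers summed to 159.5 to 175 CPM in BCAA-free sham against 213 to 219.7 in control sham, fibroblast markers to 722 to 797 against 955 to 998, and dividing cell markers (5 of 5 present) to 3.89 to 10.9 in BCAA-free TAC against 53.4 to 59.9 in control TAC. Smooth muscle markers (4 of 4 present) summed to 299.9 to 350.3 CPM in BCAA-free sham against 221 to 295 in control sham. Of 5 adipocyte markers 3 rose in BCAA-free sham, with a median of 1.29 on the log2 scale over the 5, while their sum was 453 to 531 CPM against 555 to 564.

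**Figure D3:**
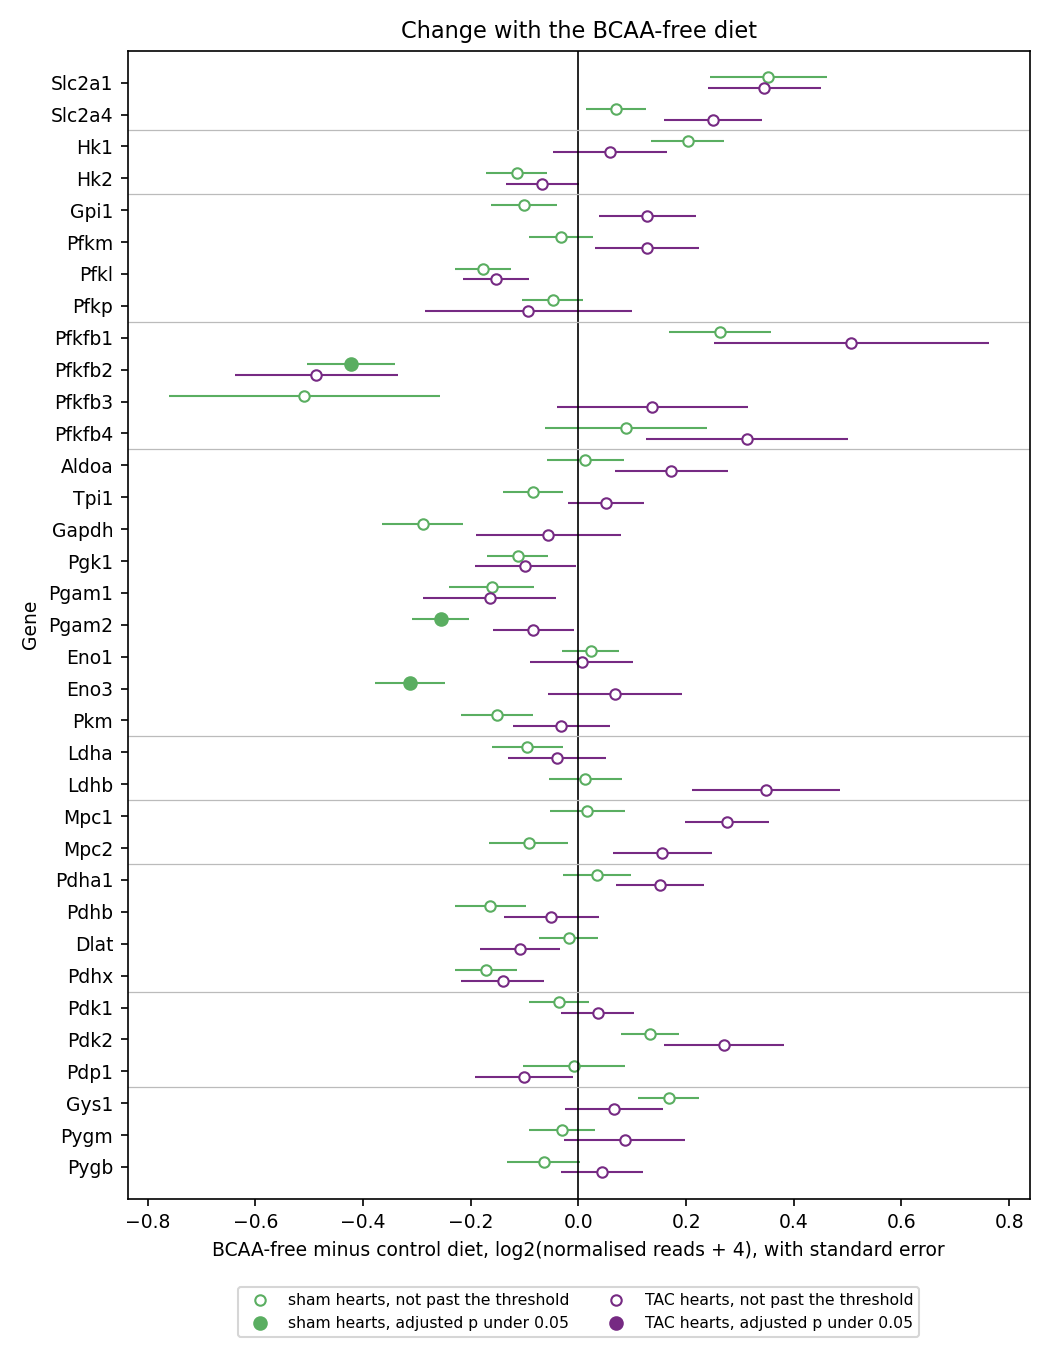
Points give the log2 difference between the BCAA-free and the control diet, on log2(normalised reads + 4), with its standard error, for 35 genes in sham hearts (green) and TAC hearts (purple), 3 libraries against 3 each. Filled points passed an adjusted p of 0.05: Pfkfb2, Pgam2 and Eno3 in sham hearts and none in TAC hearts.

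No member had a TAC response that passed the test of a difference between the diets: 0 of 35, against 0.0451% of all genes tested (0.00644% with a more positive response on the BCAA-free diet and 0.0386% with a more negative one). By edgeR and by DESeq2 0 members passed, where 5 and 109 of all genes tested did. At an unadjusted p under 0.05 there were 2, against 10.1% of all genes tested: Eno3 (0.38 ± 0.14, adjusted p = 0.36, unadjusted p = 0.0173) and Mpc1 (0.26 ± 0.11, adjusted p = 0.415, unadjusted p = 0.0313), both with the more positive response on the BCAA-free diet. The difference was positive for 26 of 35 members, with a median of 0.11 against -0.0008 for all genes tested. The summed level of the 8 cardiomyocyte markers was 73622 to 81003 CPM in control TAC and 82775 to 93336 in BCAA-free TAC, and its part in this direction was not tested.

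Glucose entry was dominated by Slc2a4, the insulin-responsive transporter of muscle and fat (chr11:69942539-69948188, minus strand), which stood at 117, 108 and 112 RPKM in control sham, 86.8, 103 and 101 in control TAC, 118, 114 and 119 in BCAA-free sham and 106, 123 and 116 in BCAA-free TAC. In control TAC all 3 libraries lay below all 3 control sham libraries, and on the BCAA-free diet the groups overlapped. Slc2a1, the transporter for basal glucose uptake (chr4:119108711-119137983, plus strand), stood at 4.41, 4.91 and 4.32 RPKM in control sham, 6.05, 5.10 and 4.76 in control TAC, 4.90, 6.04 and 6.51 in BCAA-free sham and 6.30, 7.26 and 6.58 in BCAA-free TAC. BCAA-free libraries lay above all control libraries in TAC hearts, and in sham hearts BCAA-free replicate 1 lay level with control replicate 2 and the other 2 above all controls. The diet difference of Slc2a1 was 0.35 ± 0.11 in sham and 0.35 ± 0.11 in TAC hearts, so its averaged rise rests on a like value in each. It was 0.42 (adjusted p = 0.00523) without both TAC libraries numbered 1, and its adjusted p was 0.129 without control TAC replicates 2 and 3, the 1 of 22 alternatives in which it missed the threshold. After TAC, averaged over diets, Slc2a1 stood at 0.21 ± 0.08, adjusted p = 0.0891 and Slc2a4 at -0.13 ± 0.05, adjusted p = 0.107, neither past the threshold. For the diet averaged over surgery Slc2a4 missed the threshold by limma (0.16, adjusted p = 0.0651). It was called there by DESeq2 and without both TAC libraries numbered 1. Its diet value was 0.07 (adjusted p = 0.552) in sham and 0.25 (adjusted p = 0.173) in TAC hearts. In TAC hearts all BCAA-free libraries lay above all control libraries for Slc2a4.

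Of the hexokinases, which phosphorylate glucose on entry, Hk2 is the insulin-regulated muscle form and Hk1 the widespread form. Hk2 (chr6:82725025-82774454, minus strand) stood at 65.2, 62.1 and 61.6 RPKM in control sham, 55.7, 60.8 and 60.9 in control TAC, 54.9, 59.9 and 58.8 in BCAA-free sham and 56.0, 56.6 and 56.4 in BCAA-free TAC. Hk1 (chr10:62268855-62379908, minus strand) stood at 26.8, 26.2 and 22.9 RPKM in control sham, 30.7, 24.5 and 29.1 in control TAC, 28.7, 30.3 and 27.7 in BCAA-free sham and 32.9, 27.9 and 26.8 in BCAA-free TAC. Neither passed a test in any comparison. All 3 BCAA-free sham libraries lay above control sham for Hk1 (0.20 ± 0.07, adjusted p = 0.135, unadjusted p = 0.0118) and below it for Hk2 (-0.11 ± 0.06, adjusted p = 0.31, unadjusted p = 0.0652), and in TAC hearts both genes overlapped between diets.

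Phosphofructokinase commits sugar to glycolysis, and in these hearts the muscle subunit Pfkm made up most of its RNA, at 309.8 to 391 RPKM over the 12 libraries. Pfkp, the platelet subunit (chr13:6579768-6648777, minus strand), stood at 5.06, 5.06 and 4.80 RPKM in control sham, 9.25, 6.42 and 6.65 in control TAC, 4.87, 4.71 and 4.77 in BCAA-free sham and 9.30, 6.11 and 5.70 in BCAA-free TAC. Every TAC library lay above every sham library, and the TAC libraries numbered 1 lay highest. Pfkp rose after TAC on the control diet (0.56 ± 0.12, adjusted p = 0.0333), and its change on the BCAA-free diet was close in size (0.51 ± 0.15, adjusted p = 0.0786), and 0.29 (adjusted p = 0.0301) without BCAA-free TAC replicate 1. Averaged over diets the rise was 0.54 ± 0.11, adjusted p = 0.0058, and 0.34 (adjusted p = 0.00033) without both TAC libraries numbered 1. Without control TAC replicate 1 the rise on the control diet was 0.39 (adjusted p = 0.0236). That call was lost without any 1 of the control sham libraries (adjusted p = 0.0916, 0.0687 and 0.0975) and without control TAC replicate 3 (adjusted p = 0.0913).

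Pfkl, the liver subunit (chr10:77986947-78010083, minus strand), stood at 26.7, 25.4 and 26.0 RPKM in control sham, 28.5, 28.5 and 30.2 in control TAC, 23.4, 22.4 and 22.8 in BCAA-free sham and 26.1, 25.9 and 26.4 in BCAA-free TAC. TAC libraries lay above sham on each diet and BCAA-free libraries lay below control libraries for each surgery, so the 4 groups separated along both factors, apart from the overlap of control sham with BCAA-free TAC. Pfkl rose after TAC averaged over diets (0.17 ± 0.04, adjusted p = 0.00619) and fell on the BCAA-free diet averaged over surgery (-0.17 ± 0.04, adjusted p = 0.0108). Without both TAC libraries numbered 1 the values were 0.18 (adjusted p = 0.0148) and -0.17 (adjusted p = 0.0122). Pfkl was highest of all 12 libraries in control TAC replicate 3, the library with the liver markers, whose part was not tested. Without that library the values were 0.16 (adjusted p = 0.0165) and -0.15 (adjusted p = 0.0286). Gpi1, which converts glucose 6-phosphate to fructose 6-phosphate, stood at 114, 101 and 103 RPKM in control sham, 114, 105 and 111 in control TAC, 98.9, 96.7 and 99.4 in BCAA-free sham and 121, 132 and 108 in BCAA-free TAC. Its averaged rise after TAC (0.17 ± 0.05, adjusted p = 0.0477) came with a larger value on the BCAA-free diet (0.28 ± 0.08) than on the control diet (0.05 ± 0.07), and it missed the threshold in 13 of 22 alternatives, among them the fit without both TAC libraries numbered 1, at 0.15 (adjusted p = 0.135).

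The 4 PFKFB enzymes make and remove fructose 2,6-bisphosphate, and their RNAs were among the least abundant and most variable of the members. Pfkfb1, the form of liver and skeletal muscle (chrX:150588229-150643878, plus strand), stood at 4.58, 4.27 and 5.18 RPKM in control sham, 2.84, 3.12 and 3.23 in control TAC, 5.57, 5.14 and 6.04 in BCAA-free sham and 2.65, 5.20 and 5.95 in BCAA-free TAC. On the control diet all TAC libraries lay below sham, and on the BCAA-free diet replicate 1 alone lay below the shams. Pfkfb1 fell after TAC on the control diet (-0.60 ± 0.10, adjusted p = 0.0139) and stood at -0.37 ± 0.23, adjusted p = 0.399 on the BCAA-free diet. Without BCAA-free TAC replicate 1 that value was -0.016 (adjusted p = 0.954). The control diet call held without control TAC replicate 1, at -0.55 (adjusted p = 0.0398), and was lost without control TAC replicate 3 (adjusted p = 0.0659). Averaged over diets Pfkfb1 also fell (-0.49 ± 0.15, adjusted p = 0.0383). That call missed the threshold in 10 of 22 alternatives, among them edgeR (adjusted p = 0.0504), and the value was -0.31 (adjusted p = 0.0143) without BCAA-free TAC replicate 1 and -0.28 (adjusted p = 0.0307) without both TAC libraries numbered 1. With the BCAA-free diet averaged over surgery it stood at 0.39 ± 0.15, adjusted p = 0.109, unadjusted p = 0.0219. That value was 0.53 (adjusted p = 0.000713) without both TAC libraries numbered 1.

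Pfkfb2, the heart form that insulin and adrenergic signals activate (chr1:130689182-130729253, minus strand), stood at 11.9, 9.67 and 10.7 RPKM in control sham, 8.21, 10.5 and 13.0 in control TAC, 8.04, 8.49 and 7.40 in BCAA-free sham and 8.05, 7.42 and 6.78 in BCAA-free TAC. BCAA-free libraries lay below control libraries for each surgery, with the narrowest gap between BCAA-free TAC replicate 1 and control TAC replicate 1. Pfkfb2 fell on the BCAA-free diet in sham hearts (-0.42 ± 0.08, adjusted p = 0.0236), stood at -0.49 ± 0.15, adjusted p = 0.117 in TAC hearts, and fell averaged over surgery (-0.45 ± 0.09, adjusted p = 0.00789). The averaged fall was -0.57 (adjusted p = 0.000391) without both TAC libraries numbered 1 and missed the threshold without control TAC replicates 2 and 3 (adjusted p = 0.0534). The highest Pfkfb2 level was in control TAC replicate 3, without which the averaged fall was -0.37 (adjusted p = 0.0126). In TAC hearts alone the value was -0.66 (adjusted p = 0.0312) without control TAC replicate 1. Pfkfb3, an inducible form with high kinase activity, and Pfkfb4 passed in no comparison. Pfkfb3 spread from 1.28 to 3.07 RPKM within control sham alone, wider than the gap between any of its group means.

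**Figure D4:**
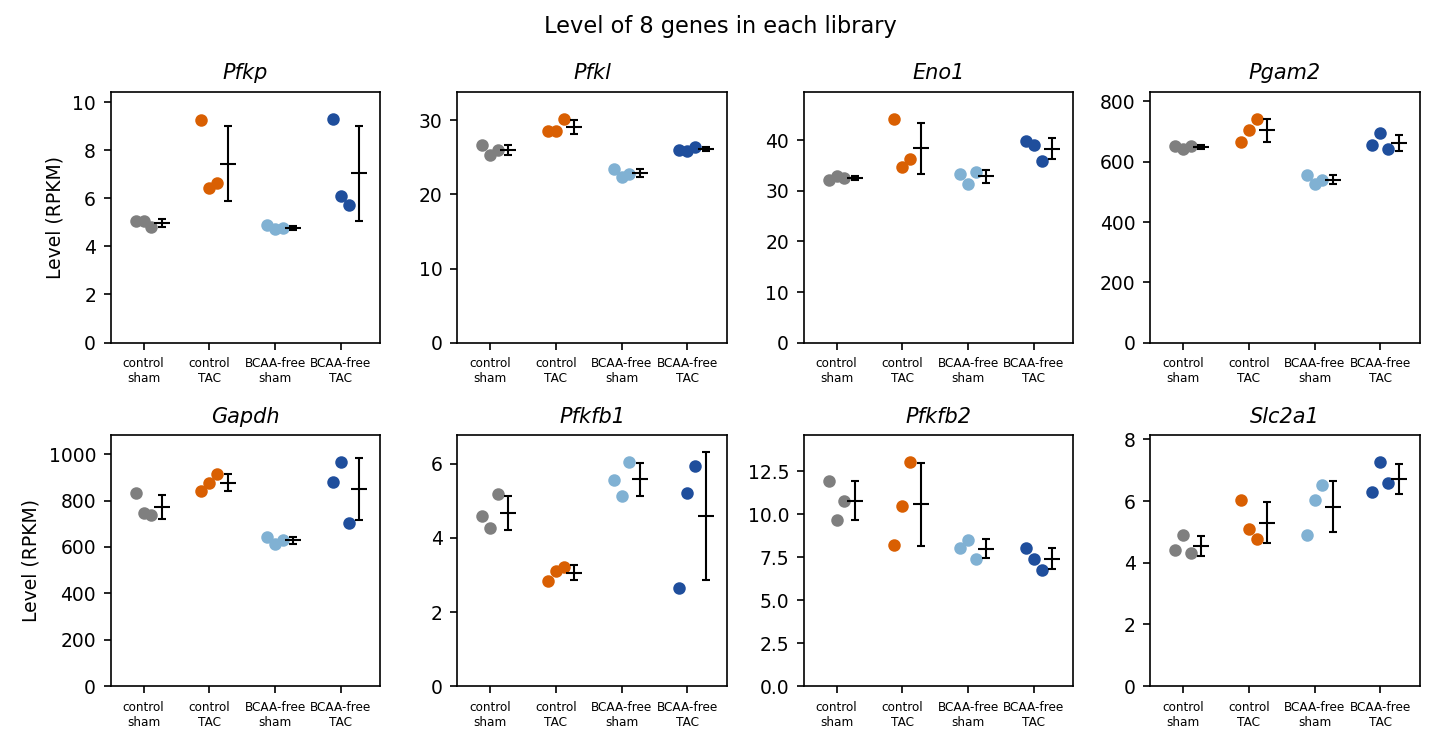
Points give the level in RPKM of 8 genes in each of 12 libraries, in the order of replicates 1, 2 and 3, with the group mean and SD (n = 3) as a bar beside them, on axes that start at 0. Pfkp is highest in the TAC libraries numbered 1 (9.25 and 9.30 RPKM), Pfkl separates by surgery within each diet and by diet within each surgery, and Pfkfb1 is lowest in control TAC and in BCAA-free TAC replicate 1.

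Lower glycolysis turns the split sugar into pyruvate. Gapdh, which makes the step that yields NADH (chr6:125161715-125166467, minus strand), stood at 833, 748 and 738 RPKM in control sham, 841, 874 and 914 in control TAC, 643, 612 and 630.1 in BCAA-free sham and 878, 965 and 702 in BCAA-free TAC. TAC libraries lay above the shams of their diet, with BCAA-free TAC replicate 3 the lowest of them, and BCAA-free sham lay below control sham. That diet difference missed the threshold (-0.29 ± 0.08, adjusted p = 0.0667) and passed in 5 of 14 alternatives, edgeR (adjusted p = 0.0451) and DESeq2 (adjusted p = 0.0012) among them. Averaged over diets Gapdh rose after TAC (0.30 ± 0.08, adjusted p = 0.0176, and 0.29 (adjusted p = 0.0365) without both TAC libraries numbered 1). It missed the threshold with quantile normalisation (adjusted p = 0.0627) and without control TAC replicates 2 and 3 (adjusted p = 0.0847). Gapdh is often used as a reference gene for scaling, and here it ranged over 1.58 times between the lowest and the highest library.

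Pgam2, the muscle phosphoglycerate mutase (chr11:5801640-5803733, minus strand), stood at 651, 641 and 653 RPKM in control sham, 665, 706 and 742 in control TAC, 555, 526 and 539 in BCAA-free sham and 654, 694 and 642 in BCAA-free TAC. BCAA-free sham lay below the other 9 libraries. Pgam2 rose after TAC on the BCAA-free diet (0.29 ± 0.07, adjusted p = 0.036) and averaged over diets (0.20 ± 0.04, adjusted p = 0.00565, and 0.23 (adjusted p = 0.0053) without both TAC libraries numbered 1), and it fell on the BCAA-free diet in sham hearts (-0.26 ± 0.05, adjusted p = 0.0295) and averaged over surgery (-0.17 ± 0.04, adjusted p = 0.0218). The diet value averaged over surgery was -0.19 (adjusted p = 0.0117) without both TAC libraries numbered 1, and the rise on the BCAA-free diet was 0.29 (adjusted p = 0.0311) without BCAA-free TAC replicate 1. These calls share the BCAA-free sham libraries, and leaving out any 1 of them ended the call for TAC on the BCAA-free diet (adjusted p = 0.118, 0.164 and 0.14), as did leaving out BCAA-free TAC replicate 2 (adjusted p = 0.0878). Pgam1, the form of brain and other tissues, was far less abundant, at 11.0 to 15.8 RPKM, and passed in no comparison (0.17 ± 0.08, adjusted p = 0.139, unadjusted p = 0.04 after TAC averaged over diets).

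Enolase has the same division. Eno1, the widespread form (chr4:150236721-150248879, plus strand), stood at 32.2, 32.9 and 32.5 RPKM in control sham, 44.2, 34.8 and 36.3 in control TAC, 33.4, 31.4 and 33.8 in BCAA-free sham and 40.0, 39.2 and 35.95 in BCAA-free TAC. Every TAC library lay above every sham library, and Eno1 rose averaged over diets (0.22 ± 0.06, adjusted p = 0.0164, and 0.15 (adjusted p = 0.0397) without both TAC libraries numbered 1). Eno3, the muscle form (chr11:70657202-70662513, plus strand), stood at 989.7, 898 and 948 RPKM in control sham, 722, 849 and 924 in control TAC, 764, 736 and 768 in BCAA-free sham and 829, 991 and 792 in BCAA-free TAC. It fell on the BCAA-free diet in sham hearts (-0.31 ± 0.06, adjusted p = 0.0292), and overlapped between diets in TAC hearts, where control TAC replicate 1 was lowest. The calls of Pfkfb2, Pgam2 and Eno3 in sham hearts were each lost without control sham replicate 1 (adjusted p = 0.0512, 0.0704 and 0.0854) and without any 1 of the BCAA-free sham libraries.

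Tpi1, which interconverts the triose phosphates, stood at 250.4, 242 and 254 RPKM in control sham, 266, 258 and 258 in control TAC, 239, 227 and 234 in BCAA-free sham and 267, 279.5 and 263 in BCAA-free TAC. It rose after TAC averaged over diets (0.13 ± 0.04, adjusted p = 0.0346) but missed the threshold in 12 of 22 alternatives, and stood at 0.13 (adjusted p = 0.0781) without both TAC libraries numbered 1. Pgk1, which makes the first ATP of this stretch, was higher in all TAC libraries than in the shams of its diet and did not pass (0.15 ± 0.06, adjusted p = 0.0794). Aldoa, the aldolase of muscle, and Pkm, the pyruvate kinase gene whose M1 and M2 forms the tables do not separate, passed in no comparison, at averaged TAC differences of 0.07 ± 0.06 and 0.05 ± 0.05. Pkm in BCAA-free sham lay below control sham in all 3 libraries (-0.15 ± 0.07, adjusted p = 0.261, unadjusted p = 0.0446).

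Of the genes that rose after TAC averaged over diets, Pfkp, Pfkl, Eno1 and Pgam2 passed in all 22 alternatives tried, and the 250 bases before a start site of each are shown as the sequences that belong to that result. They are RefSeq sequences on GRCm38.p6, read 5′ to 3′ along the gene. Capitals mark the letters GCGTG on either strand, which on the opposite strand read CACGC, letters found at the core of sites for hypoxia-inducible factors and the aryl hydrocarbon receptor. The windows lie at chr13:6648772-6649021 (Pfkp, minus strand), chr10:78009808-78010057 (Pfkl, minus strand), chr4:150236947-150237196 (Eno1, plus strand, 1 of 3 start sites listed) and chr11:5803797-5804046 (Pgam2, minus strand).
Pfkp: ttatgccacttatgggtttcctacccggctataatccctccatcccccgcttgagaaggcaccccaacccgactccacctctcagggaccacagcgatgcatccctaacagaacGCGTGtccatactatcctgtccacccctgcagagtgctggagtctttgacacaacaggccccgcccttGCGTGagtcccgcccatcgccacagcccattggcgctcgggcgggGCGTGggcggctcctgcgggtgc
Pfkl: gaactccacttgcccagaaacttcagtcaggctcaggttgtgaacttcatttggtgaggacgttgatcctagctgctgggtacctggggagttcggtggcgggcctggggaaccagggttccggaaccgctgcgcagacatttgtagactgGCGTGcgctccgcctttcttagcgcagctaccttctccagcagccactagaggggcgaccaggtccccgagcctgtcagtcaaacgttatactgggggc
Eno1: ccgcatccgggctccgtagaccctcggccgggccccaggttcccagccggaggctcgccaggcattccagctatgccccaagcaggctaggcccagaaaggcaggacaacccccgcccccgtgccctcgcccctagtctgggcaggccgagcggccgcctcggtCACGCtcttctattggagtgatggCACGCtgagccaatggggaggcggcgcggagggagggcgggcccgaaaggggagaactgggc
Pgam2: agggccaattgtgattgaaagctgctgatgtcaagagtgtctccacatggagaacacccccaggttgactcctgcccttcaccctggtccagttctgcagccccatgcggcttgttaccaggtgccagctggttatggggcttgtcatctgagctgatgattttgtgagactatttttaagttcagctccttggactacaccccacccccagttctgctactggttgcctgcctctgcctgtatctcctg
The printed stretches hold GCGTG 3 times in Pfkp, 1 time in Pfkl, 2 times in Eno1 and 0 times in Pgam2. The motifs were searched on both strands in windows of 300 bases, which add 50 bases after the start site. The first was ACGTG, the second was GCGTG, and the last was CACGTG, which contains the first. Of the members, 34 of 36 had windows in the table, 54 in all. GCGTG was in 55.6% of the 54 member windows and in 32.4% of all 32851 windows, ACGTG in 38.9% and 19.6%, and CACGTG in 9.26% and 7.15%. Windows of 1 gene can overlap, as for Eno1, Aldoa and Pfkm, so 1 site can count more than once. All windows were not matched to the members in base composition or expression, and the difference in shares was not tested. A match describes the letters of the window and does not show that a factor binds there.

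Lactate dehydrogenase is built from Ldha subunits, which favour lactate formation and prevail in glycolytic tissue, and Ldhb subunits, which favour lactate use and prevail in heart. Ldhb (chr6:142490249-142507957, minus strand) stood at 1018, 936 and 998 RPKM in control sham, 645, 785 and 839 in control TAC, 1019, 936 and 1009 in BCAA-free sham and 808, 1083 and 998 in BCAA-free TAC. Ldha (chr7:46841475-46855627, plus strand) stood at 209.7, 188 and 204 RPKM in control sham, 250.4, 207 and 209 in control TAC, 194, 175 and 192 in BCAA-free sham and 220.3, 218 and 207 in BCAA-free TAC. On the control diet every TAC library lay below every sham for Ldhb, lowest in replicate 1, and on the BCAA-free diet the groups overlapped. Ldhb missed the threshold after TAC on the control diet (-0.39 ± 0.10, adjusted p = 0.0589, unadjusted p = 0.00377) and averaged over diets (-0.22 ± 0.08, adjusted p = 0.0651), as it did for the diet in TAC hearts (0.35 ± 0.14, adjusted p = 0.204, unadjusted p = 0.032). Ldha missed it too (0.17 ± 0.06, adjusted p = 0.0578 averaged over diets). DESeq2 did call Ldhb lower after TAC on the control diet (adjusted p = 0.00363), and the authors' own comparison gave an adjusted p of 0.00362. Averaged over diets DESeq2 called both genes.

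Among the members of pyruvate entry and oxidation, Pdhx alone passed a test of a single gene. Mpc1 and Mpc2, the carrier subunits, passed in no comparison, with Mpc1 nearest, for the diet averaged over surgery (0.15 ± 0.05, adjusted p = 0.092). In TAC hearts all BCAA-free libraries lay above control for Mpc1 (0.28 ± 0.08, adjusted p = 0.0934, unadjusted p = 0.00638). Mpc2 stood at -0.21 ± 0.09, adjusted p = 0.199, unadjusted p = 0.0423 after TAC on the control diet. Of the pyruvate dehydrogenase subunits, Pdha1, Pdhb and Dlat passed in no comparison, with Pdhb nearest, in sham hearts on the BCAA-free diet (-0.16 ± 0.07, adjusted p = 0.216, unadjusted p = 0.0308). Pdhx, which anchors the E3 enzyme to the complex (chr2:103021075-103073513, minus strand), stood at 32.5, 30.3 and 29.8 RPKM in control sham, 28.1, 31.9 and 32.9 in control TAC, 28.1, 27.0 and 26.7 in BCAA-free sham and 28.8, 27.4 and 27.8 in BCAA-free TAC. It fell on the BCAA-free diet averaged over surgery (-0.16 ± 0.05, adjusted p = 0.0456), and missed the threshold in 11 of 22 alternatives, with -0.20 (adjusted p = 0.00768) when both TAC libraries numbered 1 were left out. Pdk1 and Pdk2, kinases that switch the complex off, and Pdp1, the phosphatase that switches it on, passed in no comparison. Pdk2, the nearest of these, stood at -0.24 ± 0.07, adjusted p = 0.0748, unadjusted p = 0.00612 after TAC on the control diet and at 0.20 ± 0.06, adjusted p = 0.0534 for the diet averaged over surgery, which became 0.21 (adjusted p = 0.0188) without both TAC libraries numbered 1. All 3 BCAA-free libraries lay above control for Pdk2 in sham (0.13 ± 0.05, adjusted p = 0.211, unadjusted p = 0.0293) and in TAC hearts (0.27 ± 0.11, adjusted p = 0.221, unadjusted p = 0.038).

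Gys1, Pygm and Pygb, the glycogen genes among the members, passed in no comparison of single genes. Gys1, the muscle glycogen synthase, ranged from 24.4 to 31.1 RPKM, with all BCAA-free sham libraries above control sham (0.17 ± 0.06, adjusted p = 0.141, unadjusted p = 0.013). Pygm, the muscle phosphorylase, stood lower in every control TAC library than in any control sham (-0.21 ± 0.08, adjusted p = 0.177, unadjusted p = 0.0335). Pygb, the brain form, ranged from 174 to 216 RPKM.

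Ratios of isoforms within a library do not depend on the library's scaling. In all, 9 pairs were tested for TAC and for diet by an exact two-sided permutation test with labels exchanged within the other factor (400 arrangements, smallest possible p = 0.005, adjusted over 18 tests). For 5 pairs the ratio moved after TAC towards the form that was less abundant in sham hearts, each at the smallest possible p. Among them, Pfkp to Pfkm and Pfkl to Pfkm share Pfkm, so they are not separate observations. This test gives that p only where TAC and sham libraries do not overlap on either diet. The separation is thus the same observation as the p-value. How often other gene pairs separate in this way was not tested. Shares below are of the summed RPKM of both genes (mean ± SD, n = 3). Their size depends on the exon lengths used, while their change between groups rests on the reads.

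Ldha made up 16.9% ± 0.183 of the lactate dehydrogenase level in control sham and 22.9% ± 4.38 in control TAC, and 15.9% ± 0.155 and 18.4% ± 2.58 in BCAA-free sham and TAC. The log2 ratio of Ldha to Ldhb rose by 0.39, exact p = 0.005, adjusted p = 0.0129. In the TAC libraries numbered 1 the share reached 27.96% and 21.4%, above the other 4 TAC libraries at 16.8% to 20.9%. The share lay at 15.7% to 17.1% in all 6 sham libraries.

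Slc2a1 made up 3.91% ± 0.399 of the glucose transporter level in control sham, 5.25% ± 1.10 in control TAC, 4.73% ± 0.647 in BCAA-free sham and 5.52% ± 0.123 in BCAA-free TAC. The log2 ratio rose by 0.34, exact p = 0.005, adjusted p = 0.0129 after TAC, and the diet difference did not pass (0.19, exact p = 0.13, adjusted p = 0.195). Hk1 made up 28.6% ± 1.34, 32.2% ± 3.41, 33.3% ± 1.16 and 34.1% ± 2.59 of the hexokinase pair in the same order. Its ratio to Hk2 passed neither for TAC (0.14, exact p = 0.15, adjusted p = 0.208) nor for diet (0.22, exact p = 0.04, adjusted p = 0.09).

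Of the 9 pairs, the log2 ratio of Pfkp to Pfkm moved furthest after TAC, rising by 0.62, exact p = 0.005, adjusted p = 0.0129, and that of Pfkl to Pfkm rose by 0.26, exact p = 0.005, adjusted p = 0.0129. Pfkp remained a small part all the same, at 1.29% ± 0.0516 of Pfkp and Pfkm in control sham and 2.17% ± 0.629 in control TAC. Pygb against Pygm rose by 0.21, exact p = 0.005, adjusted p = 0.0129, by nearly the same amount on the control diet (0.21) and the BCAA-free diet (0.20). On the BCAA-free diet, the ratios of Pfkl to Pfkm (-0.21, exact p = 0.005, adjusted p = 0.0129) and of Pdk1 to Pdk2 (-0.20, exact p = 0.005, adjusted p = 0.0129) fell. Without both TAC libraries numbered 1 these were -0.22 and -0.23, each at an adjusted p of 0.0429 by the exact permutation test. The pairs Eno1 and Eno3 (0.22, exact p = 0.06, adjusted p = 0.108 after TAC), Pdk1 and Pdk2 (0.12, exact p = 0.09, adjusted p = 0.147 after TAC) and Pgam1 and Pgam2 (-0.03, exact p = 0.775, adjusted p = 0.821 after TAC) did not pass for surgery.

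Without both TAC libraries numbered 1, the differences after TAC were smaller: 0.22 for Ldha to Ldhb, 0.37 for Pfkp to Pfkm, 0.20 for Pfkl to Pfkm and 0.14 for Pygb to Pygm, each at an adjusted p of 0.0429 by the exact permutation test. That of Slc2a1 to Slc2a4 was 0.24 and missed the threshold (adjusted p = 0.0655). For all 5 pairs the share was highest, within the TAC group of each diet, in the library numbered 1, which also held the highest fibroblast marker sum, and the part of other cell types in the ratios was not tested. Macrophage markers, 8 of 8 present in all libraries, summed to 159.5 to 219.7 CPM in the shams and 212 to 339 in TAC. Cardiomyocyte markers summed to 78518 to 85336 CPM in sham and 73622 to 93336 in TAC libraries.

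**Figure D5:**
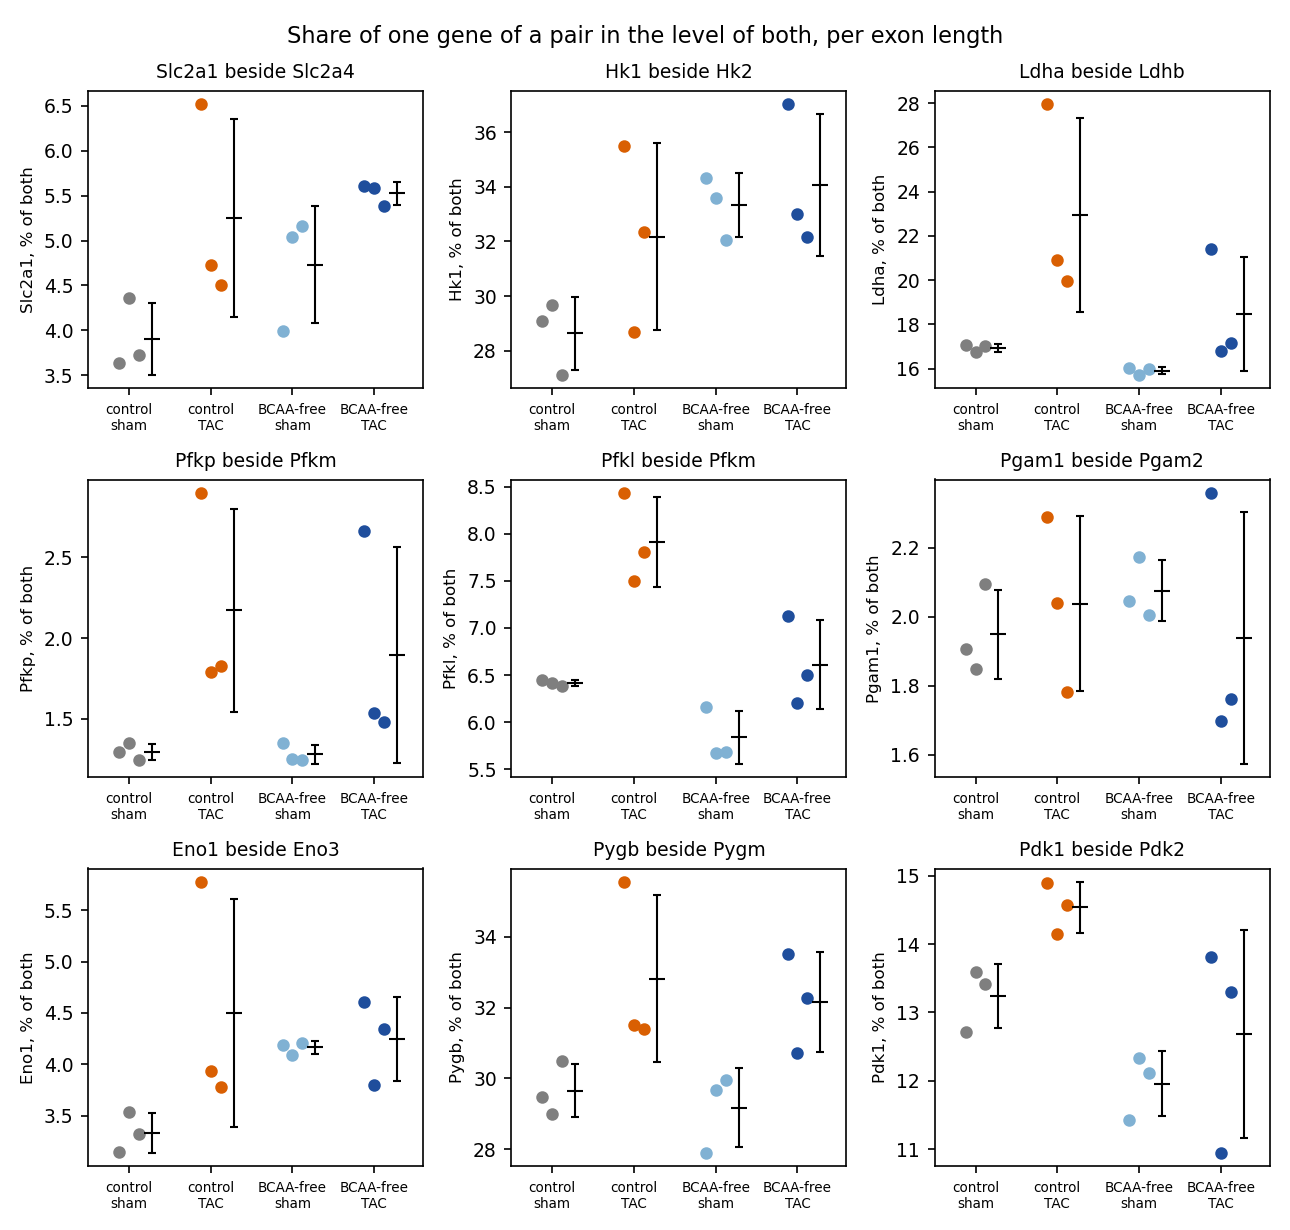
Points give the share, in percent, of the gene named first in the summed RPKM of a pair, in each of 12 libraries by group, with the group mean and SD (n = 3) as a bar beside them; the vertical axes do not start at 0. For Slc2a1, Ldha, Pfkp, Pfkl and Pygb all TAC libraries lie above the sham libraries of their diet, and the control TAC library numbered 1 is the highest point of its group in every panel.

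Other genes of the same pathways, from lists that also hold steps outside the 36, gave the setting. Of 57 tested further genes of glycolysis, glycogen, pyruvate and lactate handling, 4 rose and 8 fell after TAC averaged over diets, where 9.67% of all genes tested rose and 7.29% fell. With the BCAA-free diet 6 rose and 4 fell, where 5.19% of all genes rose and 6.57% fell. The median change was -0.036 after TAC, against -0.0049 for all genes, and 0.037 with the diet, against 0.007. Those that rose after TAC included the lactate exporter Slc16a3 (0.84 ± 0.17, adjusted p = 0.00566), the glycogen-binding Stbd1 and the kinase Pdk3. Those that fell included Pdk4, the pyruvate dehydrogenase kinase induced in fasting (-0.53 ± 0.15, adjusted p = 0.0244), the phosphatase Pdp2 (-0.36 ± 0.07, adjusted p = 0.00552) and the monocarboxylate transporter Slc16a7 (-0.56 ± 0.12, adjusted p = 0.00812).

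Pdk4 also fell with the BCAA-free diet in sham hearts (-0.70 ± 0.13, adjusted p = 0.0178). Averaged over surgery the diet raised Gaa, the lysosomal glucosidase that degrades glycogen (0.28 ± 0.05, adjusted p = 0.00277), Gyg, the glycogen primer (0.18 ± 0.04, adjusted p = 0.019), and Gpd1l. Among those it lowered was Pgm1, a phosphoglucomutase gene (-0.33 ± 0.10, adjusted p = 0.044). Of 16 tested pentose phosphate, hexosamine and polyol genes, 1 rose (Pgls) and 2 fell (Rpia and Ogt) after TAC averaged over diets. Of all genes tested, 9.67% rose and 7.29% fell. With the diet averaged over surgery 0 rose and 1 fell (Ogt), where 5.19% and 6.57% of all genes did.

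Of 20 tested regulators of glucose use, 1 rose and 8 fell after TAC averaged over diets, where 9.67% and 7.29% of all genes did. Their median was -0.12, against -0.0049 for all genes. With the diet averaged over surgery 1 rose and 0 fell, where 5.19% and 6.57% of all genes did. Tbc1d4, which holds GLUT4 vesicles inside the cell (-0.47 ± 0.06, adjusted p = 0.0006), and Txnip, an inhibitor of glucose uptake (-0.50 ± 0.11, adjusted p = 0.00841), fell, as did the oxygen-sensing genes Epas1 and Egln1, the receptor genes Esrra and Esrrg, the kinase Akt2 and Arrdc4. Akt1 rose (0.19 ± 0.05, adjusted p = 0.013). Akt2, the insulin-signalling kinase of muscle, rose with the BCAA-free diet averaged over surgery (0.18 ± 0.05, adjusted p = 0.024).

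The authors' deposited tables, at their own adjusted p under 0.05, called 1 member higher and 3 lower after TAC on the control diet, against 5.83% and 4.13% of all genes with an adjusted p there. On the BCAA-free diet the authors' deposited tables called 4 higher and 0 lower, against 4.74% and 2.43%. For the diet, the authors' deposited tables called 0 higher and 4 lower in sham hearts, against 1.94% and 3.27%, and 1 higher and 1 lower in TAC hearts, against 3.68% and 4.13%. After TAC on the control diet these were Pfkp (higher) and Pfkfb1, Ldhb and Pdk2 (lower). On the BCAA-free diet they were Gpi1, Pfkp, Gapdh and Pgam2. For the diet they were Pfkfb2, Gapdh, Pgam2 and Eno3 in sham hearts, and Mpc1 (higher) and Pfkfb2 (lower) in TAC hearts.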

How the data were processed

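Polyadenylated RNA of 12 mouse heart libraries, 3 in each of 4 groups, was compared. The tools named in the submitters' processing notes are STAR 2.5.2b, Trimmomatic 0.36, DESeq2 and Subread 1.5.2, with the build GRCm38 (mm10). Their settings, strandedness included, were not given in the sources used here, so overlapping genes may share reads. The authors deposited a table for every pair of groups that differ in 1 factor. Its library columns are a signal, which the authors made by dividing gene reads by size factors of that table. The log2 fold change, p-value and adjusted p-value of the authors' own comparison are deposited in the same tables, per the file headers.

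The main test was limma 3.58.1 (R 4.3.3) with an intensity trend on log2(value + 4), where the mean was at least 10. P-values were adjusted over all genes tested by the Benjamini-Hochberg method, at a threshold of 0.05. Fold changes on this scale understate low genes. TAC averaged over diets and the difference of responses used the columns of the TAC tables, and diet averaged over surgery those of the diet tables. Whole reads were recovered from the columns (100% whole at a tolerance of 0.001). After TAC on the control diet, limma called 848 genes, and count tests on these reads called 731 with edgeR 4.0.16 and 1544 with DESeq2 1.42.0. RPKM used these reads, TMM scaling and GENCODE M21 exon lengths, taken as the union of all annotated exons (16475 of 16514 genes matched). Isoform ratios were tested by exact permutation in Python 3.11.15. The limma step was tested on simulated data.

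The 6 genes of the pairs Slc2a1 and Slc2a4, Hk1 and Hk2, Ldha and Ldhb, and every member past the threshold in at least 1 of 7 comparisons, are given in every library. Other members are given by range and count, with values for some, not all, of the comparisons where an unadjusted p is under 0.05. The members, lists and rule were chosen with earlier results of these data known. Replicate numbers were not treated as pairs in the main tests, and correlations of same-numbered libraries ran from -0.153 to 0.324. All 66 pairs of libraries differed by more than sampling noise. Alternatives were other pseudocounts, filters, scalings and tools, a replicate block, and left-out libraries. The counts over pathway lists include 1 gene that is not reported here by name.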

Additional observations from a re-analysis of the deposited data

How the results depend on the processing

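No member or isoform ratio that passed changed direction in any alternative. Over 26 such results and 484 alternative values, 396 stayed past the threshold and 88 did not. DESeq2 called 4 members after TAC on the control diet, 4 after TAC on the BCAA-free diet and 2 for the diet in TAC hearts. For the diet averaged over surgery it called 8, of which 4 were higher, against 1 of 5 in the limma test. Over all genes DESeq2 called 1544, 1159, 1181 and 2383 in these 4 comparisons, against 848, 688, 548 and 1819 by limma. Quantile normalisation gave 9 for the diet averaged over surgery, of which 1 was higher. Without control TAC replicates 2 and 3, 1 member passed after TAC on the control diet, 12 after TAC averaged over diets and 1 for the diet averaged over surgery. Without both TAC libraries numbered 1, an alternative added after seeing the data, 10 passed for the diet averaged over surgery and 6 for TAC averaged over diets. With the replicate number as a block, which only shares a number here, 5 members passed for the diet in sham hearts and 2 for the diet in TAC hearts. The blocked isoform ratio test, whose smallest p is 0.03125, called 0 ratios for TAC and 0 for diet. After adjustment over all ratio tests, that p passes the threshold only if most of the tests reach it. In the main test most did not reach the smallest possible p. The blocked test could therefore hardly call a ratio, and no conclusion is drawn from its 0 calls. Ratios that passed in the main test count under it among the 88. Leaving out 1 library at a time gave 0 to 2 members for TAC on the control diet, 0 to 5 for TAC on the BCAA-free diet, 0 to 5 for the diet in sham hearts, 0 to 1 for the diet in TAC hearts, 5 to 9 for TAC averaged over diets and 3 to 10 for the diet averaged over surgery. The same step gave 5 to 7 ratios for TAC and 2 to 5 for diet. Fits without a library have fewer samples, and the cause of the other shifts was not tested. Apart from DESeq2, the share of all genes called in each alternative is not given here. These member counts alone are therefore not a result about the members. In 6 of 12 cases the best match of a library, among the 3 of the other group, bore its own number, as a hint from the data only. The match was sought in 1 direction, and whether it was mutual was not checked. With 3 libraries a group, changes of the size of most members' standard errors cannot be told from 0.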
